A study of Homo sapiens with 15 samples.

Results

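The genes of interleukin 1 signalling and of prostaglandin E2 synthesis were followed in HT1080 cells, an established human fibrosarcoma line, across changes in class IIa lysine deacetylases. They were taken as the rows of the deposited table whose gene name is one of 10 symbols, and all 10 were found among 60675 genes: IL1A, IL1B, IL1R1, IL1RAP, PTGS1, PTGS2, PTGES, PTGES2, PTGES3 and PTGER4. Of these, 9 passed the filter on low counts and were tested with 17780 genes in all. PTGS1 did not pass.

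Interleukin 1 alpha and beta are cytokines that signal through a receptor chain, IL1R1, and its accessory chain, IL1RAP, to the adaptor MYD88 and on to NF-kB and the stress kinases. Prostaglandin E2 is made in 2 enzymatic steps from arachidonic acid, which phospholipases release from membranes: a cyclooxygenase makes prostaglandin H2, and a prostaglandin E synthase turns this into prostaglandin E2. The inducible enzymes of both steps, PTGS2 (cyclooxygenase 2) and PTGES (microsomal prostaglandin E synthase 1), are known targets of interleukin 1 in fibroblasts, while PTGS1, PTGES2 and PTGES3 are usually described as constitutive. PTGER4 encodes the prostaglandin E receptor EP4.

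KDAC4 and KDAC7 are the proteins of the HDAC4 and HDAC7 genes, class IIa deacetylases that act as corepressors and have little catalytic activity of their own. Untreated cells carried 1 of 3 changes in an endogenous gene: KDAC4 H803A (3 count libraries), KDAC4 H976Y (4) or KDAC7 H709A (4). The series title calls its variants inactive and its design text speaks of inactivated or enhanced forms. H803A and H709A are read here as inactivating and H976Y as enhancing, since tyrosine at that histidine is known to raise the activity of this class. The last group was wild-type HT1080 given 1 µM TMP195, a class IIa inhibitor, for 2 days (3 libraries). Untreated wild-type cells were not analysed here, so no comparison sets a variant or the inhibitor against unmodified, untreated cells, and each comparison of TMP195 with a variant differs in treatment and genotype together, which cannot be told apart. Neither clones nor separate cultures are named in the labels, so the p-values take in no more than the variation among these samples, part or all of which may be technical. The deposited column of KDAC4 H803A replicate 4 held gene lengths and was not used as counts.

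Total counts ran from 6151383 to 24297487, and 1 CPM (a level of 1 count in 1e+06 counts of scaled library size) stood for 4.86 to 23.9 counts. Several libraries stood apart from their groups. The library labelled KDAC4 H803A replicate 1 was closest of all 91 pairs to KDAC7 H709A replicate 4: the squared difference per gene averaged 2.10 times what counting alone gives, against 208 and 240.0 times to the other KDAC4 H803A libraries. KDAC7 H709A replicate 1 was closest to KDAC4 H803A replicate 3, at 32.1 times, against 152 to 282 times to its own group. KDAC7 H709A replicate 4 lay at 64.3 and 77.1 times from replicates 2 and 3 of its own group, which lay at 14.3 times from each other. KDAC4 H803A replicate 1 lay at 52.8 and 63.1 times from the same 2 libraries. Whether labels of these libraries were exchanged was not tested, and the means and fold changes of KDAC4 H803A and KDAC7 H709A rest on the labels as given. Values without these 3 libraries (KDAC4 H803A replicate 1, KDAC7 H709A replicates 1 and 4), which leaves 2 libraries in each of these groups, are therefore set beside the results. All 4 KDAC4 H976Y libraries had 16.1 to 31.5% of counts on mitochondrial ribosomal RNA, against at most 0.345% in the other groups. They had 0.722 to 0.913% on small nucleolar RNA, against at most 0.101%, and 0.676 to 1.41% on mitochondrial mRNA, against at least 2.38%. All libraries of the group share this difference, so in each comparison with KDAC4 H976Y it cannot be told apart from the variant. Mesenchymal markers summed to 3370 to 6933 CPM over all libraries, with overlap between groups, and VIM was the largest part (group means 3581 to 4981 CPM). Single markers went different ways. FN1 was 1487 to 2479 CPM in KDAC4 H976Y and at most 1158 in the other groups. COL6A2 was 55.2 to 67.6 CPM in KDAC4 H976Y and at least 87.5 in the others. S100A4 and THY1 averaged at most 0.681 and 1.29 CPM in a group. Of 8 monocyte and macrophage markers, which mark cells known to make much interleukin 1, PTPRC and TYROBP had no counts in any library. Their sum was 22.8 to 92.3 CPM in KDAC4 H803A, 85.3 to 149.7 in KDAC4 H976Y, 28.8 to 100.9 in KDAC7 H709A and 48.3 to 74.2 in TMP195, and most of it was CD68. The sum of 7 epithelial markers was 195 to 283 CPM in KDAC4 H976Y, below all of KDAC4 H803A (358 to 494) and TMP195 (301 to 376) and overlapping KDAC7 H709A (265 to 368). Nearly all of it was the keratins KRT8 and KRT18, while EPCAM and CDH1 had at most 0.0965 and 0.282 CPM in a library. Endothelial markers summed to at most 5.73 CPM, and the part of other cells in the results was not tested. In bulk RNA, fewer cells that express a gene and less RNA per cell cannot be told apart.

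The interleukin 1 ligands and the inducible enzymes of prostaglandin E2 synthesis had their highest group means in KDAC4 H976Y and their lowest in the inactivated variants, with TMP195-treated cells in between. In KDAC4 H803A against KDAC4 H976Y, 4 of 9 members were called lower (edgeR's quasi-likelihood test, Benjamini-Hochberg adjusted p under 0.05) and 0 higher, where 5.85% of all genes tested were called lower and 9.21% higher. In KDAC7 H709A against KDAC4 H976Y, 5 were lower and 1 higher, where 5.19% of all genes were lower and 7.28% higher. In TMP195 against KDAC4 H976Y, 3 were lower and 0 higher, where 8.55% of all genes were lower and 7.96% higher. These shares were 15.1%, 12.5% and 16.5% in either direction. TMP195 had 2 members called higher than KDAC4 H803A and 0 lower, where 1.56% of all genes were higher, 3.78% lower and 5.34% either. Against KDAC7 H709A it had 1 higher and 0 lower, where 1.99% were higher, 4.31% lower and 6.29% either. Between KDAC7 H709A and KDAC4 H803A, edgeR called 0 members and 0% of all genes at an adjusted p under 0.05. At an unadjusted p under 0.05 that comparison had 1118 genes (6.29%) and 0 members, and DESeq2 called 79 genes (0.444%) and 0 members. At an unadjusted p under 0.05, 6 members passed in KDAC4 H803A against KDAC4 H976Y (33.7% of all genes) and 6 in KDAC7 H709A against KDAC4 H976Y (27.1%). In TMP195, 6 passed against KDAC4 H976Y (33.3%), 3 against KDAC4 H803A (18.5%) and 4 against KDAC7 H709A (22.7%). DESeq2 called 5 members in KDAC4 H803A against KDAC4 H976Y (24.6% of all genes), 6 in KDAC7 H709A against KDAC4 H976Y (19.1%), 2 in TMP195 against KDAC4 H803A (10.9%), 4 in TMP195 against KDAC4 H976Y (25.3%) and 4 in TMP195 against KDAC7 H709A (14%).

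Whether or not they passed, the libraries of KDAC4 H803A and KDAC4 H976Y did not overlap for 6 of 9 members, as for 23.1% of all genes tested. In KDAC7 H709A against KDAC4 H976Y 6 members did not overlap (20.1% of all genes), and in KDAC7 H709A against KDAC4 H803A 0 (2.01%). For TMP195 the members without overlap were 8 against KDAC4 H976Y (53.8% of all genes), 2 against KDAC4 H803A (24.3%) and 5 against KDAC7 H709A (24.3%).

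With the 3 libraries that stand apart left out, the same test called more members and more of all genes in 5 of the 6 comparisons, and the same members with more of all genes in the sixth. KDAC4 H803A against KDAC4 H976Y then had 7 members lower and 1 higher, where 64.5% of 18359 genes were called (31.8% lower and 32.8% higher). KDAC7 H709A against KDAC4 H976Y had the same 5 lower and 1 higher, where 31.8% of all genes were called (15.3% lower and 16.4% higher). KDAC7 H709A against KDAC4 H803A had 4 higher and 1 lower, where 60.2% were called (30% higher and 30.2% lower). TMP195 had 4 higher and 1 lower against KDAC4 H803A, where 47.9% were called (22.9% higher and 25% lower). It had 7 lower and 0 higher against KDAC4 H976Y, where 53.9% were called (28% lower and 25.9% higher). Against KDAC7 H709A it had 5 higher and 2 lower, where 45.7% were called (21.2% higher and 24.5% lower). These 6 comparisons share libraries and are not independent of each other. The 3 libraries were chosen by their distances in these same data, which leaves the most alike libraries of KDAC4 H803A and KDAC7 H709A. A result that passes only without them, here and below, is thus no independent support.

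**Figure D1:**
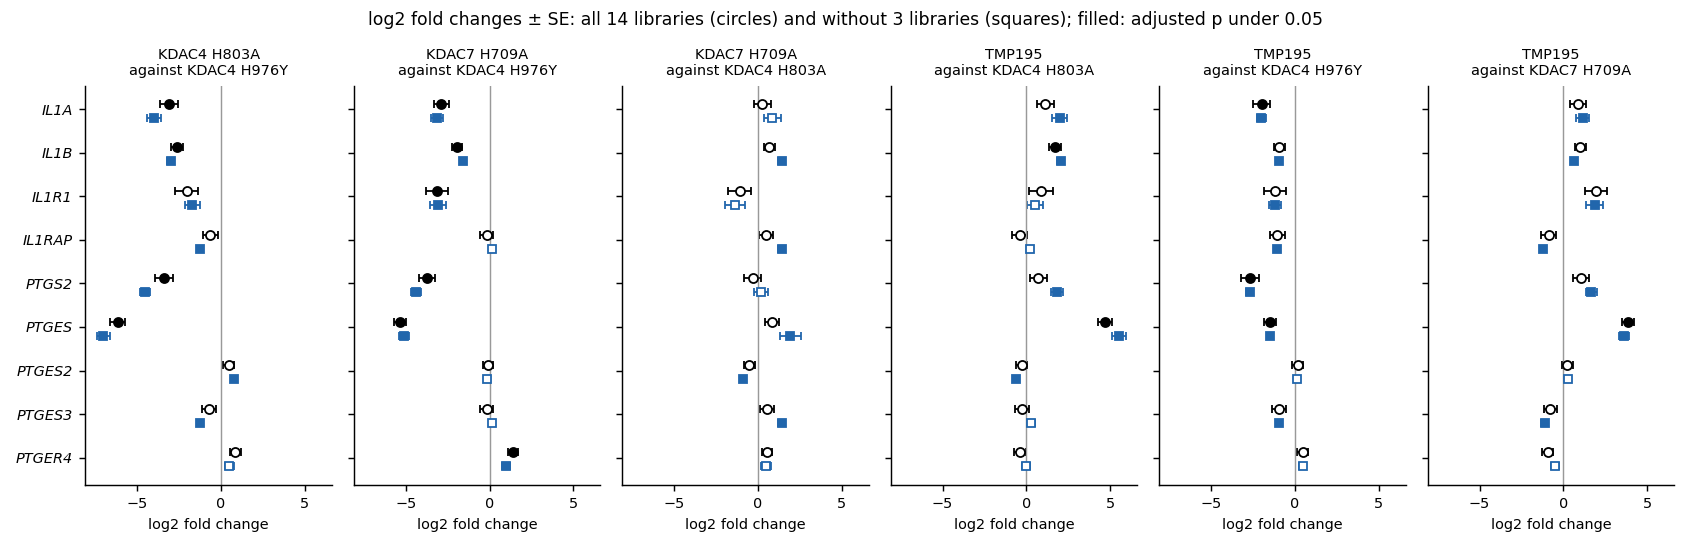
Log2 fold changes (x axis, first group over second) with SE for the 9 tested members (y axis) in the 6 comparisons, from all 14 libraries (circles) and without the 3 libraries that stand apart (squares), with filled symbols at an adjusted p under 0.05. PTGES has the largest change of the members in each comparison with KDAC4 H976Y of an inactivated variant and in both comparisons of TMP195 with an inactivated variant.

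The windows just before the start sites of the 2 inducible enzymes and of the constitutive synthase PTGES2 are shown because PTGS2 and PTGES were called in each comparison with KDAC4 H976Y and PTGES2 in none of them. The sequences are RefSeq's on GRCh38.p14, from the strand of the gene, 5′ to 3′, less the bases next to the start that lie inside the annotated gene. Capitals mark matches, on either strand, to the motifs searched in the 250 bases before each listed start. These are the motifs of the AP-1, CRE (its core), C/EBP, EGR, SP, TATA, NF-kB and MEF2 families of factors. They are spelled out where their matches are given, except NF-kB and MEF2, whose searched letters are not given here.
PTGS2 (chr1:186680428-186680673, minus strand): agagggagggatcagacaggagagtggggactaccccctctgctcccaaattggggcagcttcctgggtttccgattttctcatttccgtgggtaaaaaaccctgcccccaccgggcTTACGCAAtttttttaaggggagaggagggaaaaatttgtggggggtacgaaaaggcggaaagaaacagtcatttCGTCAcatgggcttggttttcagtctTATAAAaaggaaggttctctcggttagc
PTGES (chr9:129753048-129753292, minus strand): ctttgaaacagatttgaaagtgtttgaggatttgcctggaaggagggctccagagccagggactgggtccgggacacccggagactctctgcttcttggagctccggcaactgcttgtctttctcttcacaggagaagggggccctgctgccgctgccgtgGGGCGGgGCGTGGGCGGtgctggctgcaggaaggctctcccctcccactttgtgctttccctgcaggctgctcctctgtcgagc
PTGES2 (chr9:128128463-128128690, minus strand): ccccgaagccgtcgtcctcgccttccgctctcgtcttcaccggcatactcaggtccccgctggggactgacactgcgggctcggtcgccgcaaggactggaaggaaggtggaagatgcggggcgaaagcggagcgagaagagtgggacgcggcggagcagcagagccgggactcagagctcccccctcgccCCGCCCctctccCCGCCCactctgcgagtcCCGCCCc

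The PTGS2 window held a C/EBP match (searched as TTNCGNAA) 133 to 126 bases before the start. It also held the core of a CRE at 58 to 54, for which TGACG was searched, and a TATA match (TATAAA) at 32 to 27. These 3 motifs occur in 2.18%, 21.2% and 10.7% of 35116 RefSeq promoter windows of this length. Among the members, windows of IL1A and PTGES3 also hold the CRE core, and windows of IL1A, IL1R1 and PTGS1 the TATA match. The PTGES window held none of them. Its matches lay close together: an SP match (GGGCGG) 89 to 84 bases before the start, then an EGR match, for which GCGNGGGCG was searched, at 82 to 74, which overlaps a further SP match at 78 to 73. EGR matches occur in 8.41% of all windows and also in 1 of the 3 windows listed for PTGES2, at a start other than the one printed, and 1 of the 4 of IL1R1. SP matches occur in 42.6% of all windows and in windows of 7 of the 10 members. PTGES2 held SP matches alone in the printed stretch, all on the opposite strand, and a further one at 10 to 5 in the 22 bases left out. The MEF2 motif, of interest because class IIa deacetylases bind MEF2 factors, matched in 2.80% of all windows and in 0 of the 17 windows of the members. The NF-kB motif matched in 9.96% of all windows, and among the members in those of PTGES3 (as GGGAGGCCCC) and PTGER4 (as GGGGCTTCCC). AP-1, searched as TGANTCA, matched in 6.57% of all windows and among the members in that of IL1A. A match is a description of letters, not a binding site or a cause. Sites spelled otherwise than the motif searched are not matched, so a window without a match, that of PTGS2 for NF-kB included, may still hold a site.

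IL1B (ENSG00000125538, chromosome 2, 112829751 to 112836903, GRCh38, protein-coding), the secreted ligand cut from its precursor by caspase 1, was the most abundant of the 2 ligands in every library. It stood at 309.6, 334, 369 and 224 CPM in the 4 KDAC4 H976Y libraries and at 169.5, 168 and 144 CPM in the 3 of TMP195. The KDAC7 H709A libraries had 40.8, 94.1, 113 and 71.5 CPM, and those of KDAC4 H803A 71.6, 40.9 and 37.2 CPM. KDAC4 H976Y lay above all other libraries, TMP195 lay above both inactivated variants, and the latter overlapped. IL1B was lower in KDAC4 H803A than in KDAC4 H976Y by a log2 fold change of -2.63 ± 0.35 (SE here and below; edgeR adjusted p = 0.000631), and in KDAC7 H709A by -1.95 ± 0.31 (edgeR adjusted p = 0.00136). Leaving out the 3 libraries gave -3.001 ± 0.209 and -1.58 ± 0.19. TMP195 exceeded KDAC4 H803A by 1.68 ± 0.35 (edgeR adjusted p = 0.0124), a call that was lost in 5 of 23 alternatives, at adjusted p up to 0.0793: in a fit of these 2 groups alone and without KDAC4 H803A replicate 2 or 3 or TMP195 replicate 1 or 2. TMP195 differed from KDAC4 H976Y by -0.95 ± 0.33 and from KDAC7 H709A by 1.01 ± 0.32, which did not pass (edgeR adjusted p = 0.0624 and 0.0785). Both passed without the 3 libraries (-0.96 ± 0.16 and 0.62 ± 0.19).

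IL1A (ENSG00000115008, chromosome 2, 112773915 to 112784590), the ligand that is active as a precursor and often stays with the cell, had the same order of groups at a much lower level. Its values were 17.2, 19.0, 18.5 and 10.5 CPM in KDAC4 H976Y and 4.19, 4.88 and 3.21 CPM in TMP195. KDAC7 H709A had 1.64, 1.21, 2.38 and 3.56 CPM, and KDAC4 H803A had 3.36, 0.581 and 1.54 CPM. KDAC4 H976Y stood clear of every other library, while the other 3 groups overlapped. The highest KDAC4 H803A library and the highest KDAC7 H709A library were the near-alike pair, replicates 1 and 4. The log2 fold changes against KDAC4 H976Y were -3.13 ± 0.53 in KDAC4 H803A (edgeR adjusted p = 0.00256), -2.87 ± 0.47 in KDAC7 H709A (0.00171) and -1.99 ± 0.50 in TMP195 (0.0164). These were -3.99 ± 0.42, -3.15 ± 0.37 and -2.01 ± 0.28 without the 3 libraries. The TMP195 call was lost without any 1 of the TMP195 replicates, at adjusted p up to 0.0837, and with the replicate number as a block (adjusted p = 0.0575). Against the inactivated variants, TMP195 differed by 1.13 ± 0.52 and 0.87 ± 0.47, which did not pass with all libraries (edgeR adjusted p = 0.267 and 0.295) and passed without the 3 (1.98 ± 0.45 and 1.14 ± 0.38).

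Per length, IL1B transcripts outnumbered those of IL1A in all 14 libraries. The ratio of CPM per kilobase was 26.9 to 32.6 in KDAC4 H976Y and 52.6 to 68.5 in TMP195, and these ranges did not overlap. It ran from 32.7 to 107.7 in KDAC4 H803A and from 30.7 to 118.7 in KDAC7 H709A, where IL1A rested on as few as 6 counts. Besides each other, both genes lie within 1 Mb of the same 26 tested genes. In KDAC4 H803A against KDAC4 H976Y the median log2 fold change of these neighbours was 0.035, with 4 called higher and 0 lower (edgeR).

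IL1R1 (ENSG00000115594, chromosome 2, 102064544 to 102179874), the signalling receptor chain, was sparse, with 0 to 44 counts a library. KDAC4 H976Y had 2.96, 3.51, 4.76 and 3.50 CPM, and TMP195 had 2.41, 1.22 and 1.20 CPM. KDAC4 H803A had 0.443, 1.26 and 0.987 CPM, and KDAC7 H709A had 0, 0.260, 0.563 and 0.713 CPM; the count of 0 in its replicate 1 allows up to 0.290 CPM (3 counts, counting error only). KDAC4 H976Y was above all others and KDAC7 H709A lay below every TMP195 library. IL1R1 was lower in KDAC7 H709A than in KDAC4 H976Y (-3.14 ± 0.65, edgeR adjusted p = 0.00672), a call held in all 23 alternatives (-3.08 ± 0.49 without the 3 libraries). KDAC4 H803A differed from KDAC4 H976Y by -2.05 ± 0.69 and TMP195 from KDAC7 H709A by 1.95 ± 0.66, and neither passed (edgeR adjusted p = 0.0601 and 0.0985). Without the 3 libraries both passed, at -1.72 ± 0.45 and 1.88 ± 0.51.

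IL1RAP (ENSG00000196083, chromosome 3, 190514051 to 190659750), the accessory chain that IL1R1 needs to signal, was not called in any comparison of all libraries. It had 48.4, 52.1, 54.2 and 42.8 CPM in KDAC4 H976Y and 26.6, 24.7 and 19.99 CPM in TMP195. In KDAC4 H803A it had 53.3, 21.8 and 19.8 CPM, and in KDAC7 H709A 13.995, 45.9, 63.6 and 52.4 CPM. KDAC4 H803A replicate 1 stood at the level of most KDAC7 H709A libraries, and KDAC7 H709A replicate 1 below all other libraries, nearest to KDAC4 H803A replicates 2 and 3 and TMP195. With all libraries, KDAC4 H803A against KDAC4 H976Y gave -0.64 ± 0.43 and TMP195 against KDAC4 H976Y -1.06 ± 0.44 (edgeR adjusted p = 0.304 and 0.113). With the 3 libraries left out these were -1.27 ± 0.18 and -1.07 ± 0.15 and passed, and KDAC7 H709A exceeded KDAC4 H803A by 1.41 ± 0.19. Per length IL1RAP was the more abundant chain of the receptor, with a median over libraries of 34.9 CPM per kilobase against 0.523 for IL1R1.

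**Figure D2:**
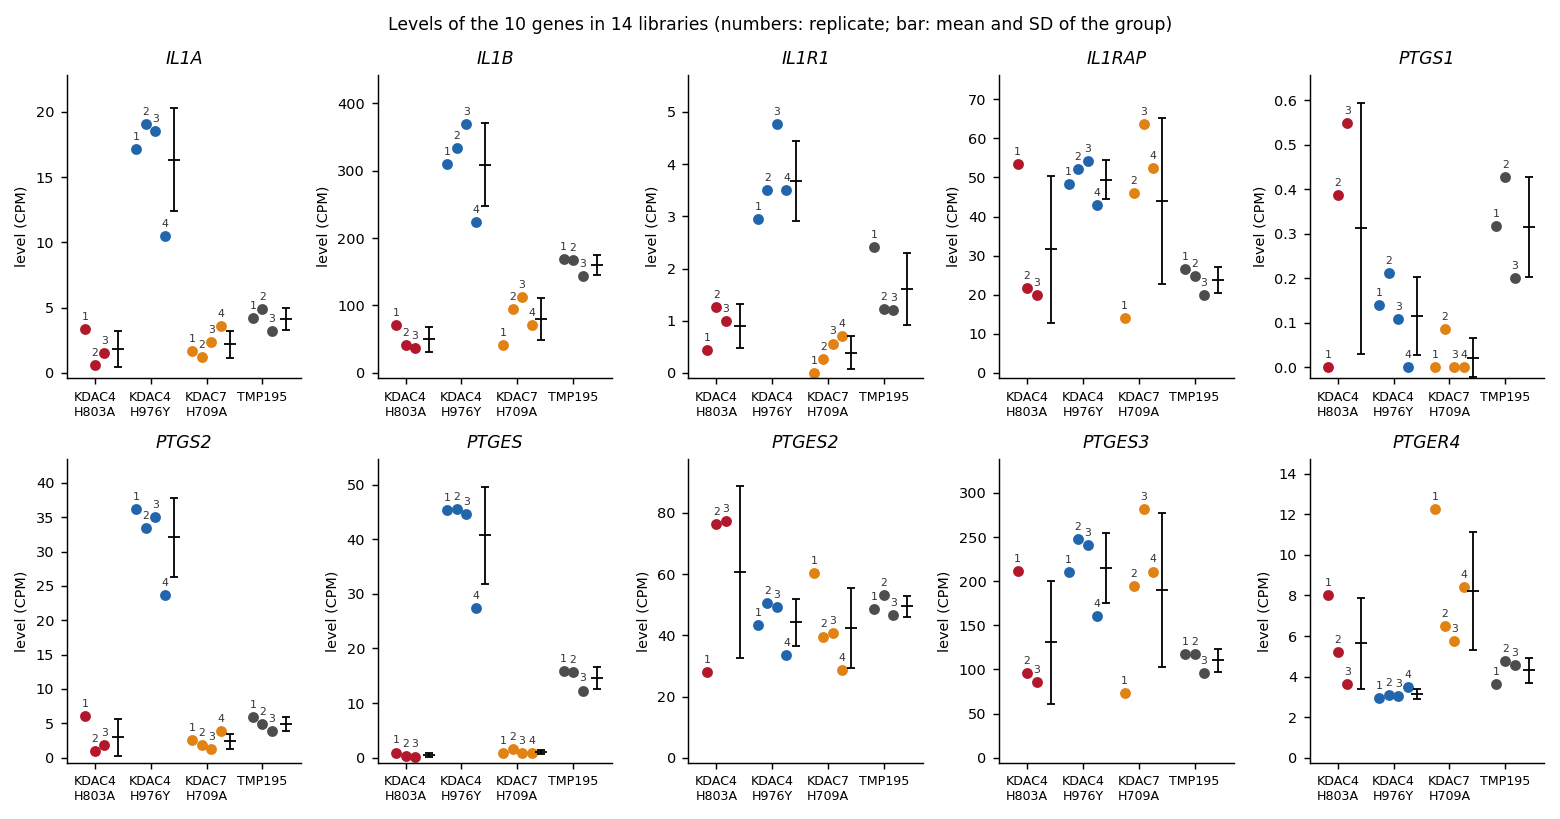
Levels in CPM (y axis) of the 10 members in the 14 libraries, by group (x axis), with replicate numbers beside the points and the mean and SD of each group as a bar. IL1A, IL1B, IL1R1, PTGS2 and PTGES have all 4 KDAC4 H976Y libraries above the libraries of every other group; PTGER4 has them below all 7 libraries of the inactivated variants.

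PTGS2 (ENSG00000073756, chromosome 1, 186671791 to 186680427), whose promoter window is printed above, is the inducible cyclooxygenase, and it made up most cyclooxygenase transcripts. It stood at 36.2, 33.4, 35.0 and 23.7 CPM in KDAC4 H976Y and at 5.97, 4.95 and 3.95 CPM in TMP195. KDAC4 H803A had 6.02, 0.969 and 1.86 CPM, and KDAC7 H709A had 2.51, 1.82, 1.31 and 3.90 CPM. KDAC4 H976Y lay far above the rest. TMP195 lay just above KDAC7 H709A without overlap and overlapped KDAC4 H803A through its replicate 1. Against KDAC4 H976Y the log2 fold change was -3.41 ± 0.55 in KDAC4 H803A (edgeR adjusted p = 0.00186), -3.73 ± 0.50 in KDAC7 H709A (0.000488) and -2.69 ± 0.52 in TMP195 (0.00439). All 3 calls held in each of 23 alternatives, and without the 3 libraries the values were -4.53 ± 0.31, -4.38 ± 0.30 and -2.70 ± 0.21. TMP195 differed from KDAC4 H803A by 0.71 ± 0.53 and from KDAC7 H709A by 1.04 ± 0.49, which did not pass (edgeR adjusted p = 0.520 and 0.228). Both passed without the 3 libraries, at 1.83 ± 0.34 and 1.67 ± 0.31.

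PTGS1 (ENSG00000095303, chromosome 9, 122370530 to 122395703), the constitutive cyclooxygenase of platelets, stomach and many other tissues, had at most 7 counts in a library and was not tested. Its counts summed to 9 over the KDAC4 H803A libraries, 4 over KDAC4 H976Y, 1 over KDAC7 H709A and 15 over TMP195. Each TMP195 library had 3 to 7 counts and each KDAC4 H976Y library 0 to 2. Per length, PTGS2 made up 99.7 to 100% of cyclooxygenase transcripts in KDAC4 H976Y, 97.9 to 100% in KDAC7 H709A, 96.3 to 97.8% in TMP195 and 84.7 to 100% in KDAC4 H803A.

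PTGES (ENSG00000148344, chromosome 9, 129738331 to 129753047) had the largest log2 fold change of the tested members. It stood at 45.3, 45.5, 44.6 and 27.4 CPM in KDAC4 H976Y and at 15.8, 15.6 and 12.3 CPM in TMP195. The KDAC7 H709A libraries had 0.772, 1.56, 0.876 and 0.839 CPM, and those of KDAC4 H803A 0.950, 0.388 and 0.219 CPM, the last from 2 counts. The order was KDAC4 H976Y, then TMP195, then the inactivated variants, with no overlap between these 3 levels; KDAC7 H709A and KDAC4 H803A overlapped through KDAC4 H803A replicate 1. KDAC4 H803A was lower than KDAC4 H976Y by -6.17 ± 0.45 on the log2 scale, a 71.9-fold difference (edgeR adjusted p = 1.16e-05), and KDAC7 H709A by -5.33 ± 0.37, a 40.3-fold difference (edgeR adjusted p = 6.49e-06). TMP195 was above KDAC4 H803A by 4.69 ± 0.44 (edgeR adjusted p = 2.75e-05) and above KDAC7 H709A by 3.85 ± 0.36 (2.86e-05). These 4 calls held in all 23 alternatives, with values of -7.02 ± 0.40, -5.11 ± 0.31, 5.52 ± 0.43 and 3.61 ± 0.32 without the 3 libraries. TMP195 was below KDAC4 H976Y by -1.48 ± 0.34 (edgeR adjusted p = 0.0108; -1.50 ± 0.19 without the 3 libraries), and this call was lost without TMP195 replicate 3, at an adjusted p of 0.0641. KDAC7 H709A and KDAC4 H803A differed by 0.84 ± 0.42 (edgeR adjusted p = 0.634), and by 1.91 ± 0.63 without the 3 libraries (0.0175).

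PTGES2 (ENSG00000148334, chromosome 9, 128120693 to 128128462), a Golgi-associated synthase also called microsomal prostaglandin E synthase 2, was not called in any comparison of all libraries. It had 43.5, 50.6, 49.3 and 33.6 CPM in KDAC4 H976Y and 48.5, 53.3 and 46.5 CPM in TMP195. KDAC4 H803A had 28.2, 76.3 and 77.3 CPM, and KDAC7 H709A had 60.4, 39.7, 40.7 and 28.8 CPM. Without the libraries that stand apart the inactivated variants narrow to 76.3 and 77.3 CPM and to 39.7 and 40.7 CPM. PTGES3 (ENSG00000110958, chromosome 12, 56663341 to 56688408), the cytosolic synthase that is also the p23 cochaperone of HSP90, ran the other way among the KDAC4 H803A libraries. It had 210.3, 248, 241 and 160.5 CPM in KDAC4 H976Y, 117, 118 and 95.4 CPM in TMP195, 211, 95.5 and 86.1 CPM in KDAC4 H803A, and 72.9, 194, 282 and 211 CPM in KDAC7 H709A. In KDAC4 H803A replicate 1 and KDAC7 H709A replicate 4 the 2 genes stood at nearly the same levels, 28.2 and 28.8 CPM for PTGES2 and 211.2 and 210.9 CPM for PTGES3. Against KDAC4 H976Y, PTGES2 differed by 0.45 ± 0.32 and PTGES3 by -0.71 ± 0.40 in KDAC4 H803A (edgeR adjusted p = 0.329 and 0.220). With the 3 libraries left out both passed, at 0.77 ± 0.15 and -1.26 ± 0.20. In KDAC7 H709A against KDAC4 H976Y the 2 genes did not differ in direction, at -0.06 ± 0.30 for PTGES2 and -0.18 ± 0.36 for PTGES3. Neither passed there (edgeR adjusted p = 0.926 and 0.810).

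The libraries also differed in base composition. The GC contrast of a library, the median log2 level of genes in the upper quartile of GC content less that of the lower quartile, each gene set against its mean over all libraries, was 1.32 and 1.25 in KDAC4 H803A replicates 2 and 3 and 1.12 in KDAC7 H709A replicate 1, but -1.05 in KDAC4 H803A replicate 1 and -1.08 in KDAC7 H709A replicate 4. PTGES2, at the 93.4th percentile of tested genes by GC content, had its 3 highest levels in the 3 libraries with a contrast above 1, from 60.4 to 77.3 CPM. In these libraries PTGES3 and IL1RAP, at the 21.8th and 14.8th percentiles, had 72.9 to 95.5 CPM and 13.995 to 21.8 CPM. They were as low in TMP195 replicate 3, whose contrast was 0.496. With GC and length offsets the difference of KDAC4 H803A from KDAC4 H976Y was -0.16 in place of 0.45 for PTGES2, -0.49 in place of -0.71 for PTGES3 and -0.49 in place of -0.64 for IL1RAP. That of TMP195 from KDAC4 H976Y was -0.65 in place of -0.96 for PTGES3 and -0.73 in place of -1.06 for IL1RAP. None of these 5 passed with the offsets (edgeR adjusted p = 0.542, 0.149, 0.179, 0.0650 and 0.0602) or without them. For PTGES, at the 74.7th percentile, KDAC4 H803A and KDAC7 H709A differed from KDAC4 H976Y by -6.35 and -5.37 with the offsets, for PTGS2, at the 14.97th, by -3.35 and -3.83, and for IL1A, at the 6.05th, by -2.98 and -3.02, and these 6 remained called. The part of base composition in the levels was not tested.

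**Figure D3:**
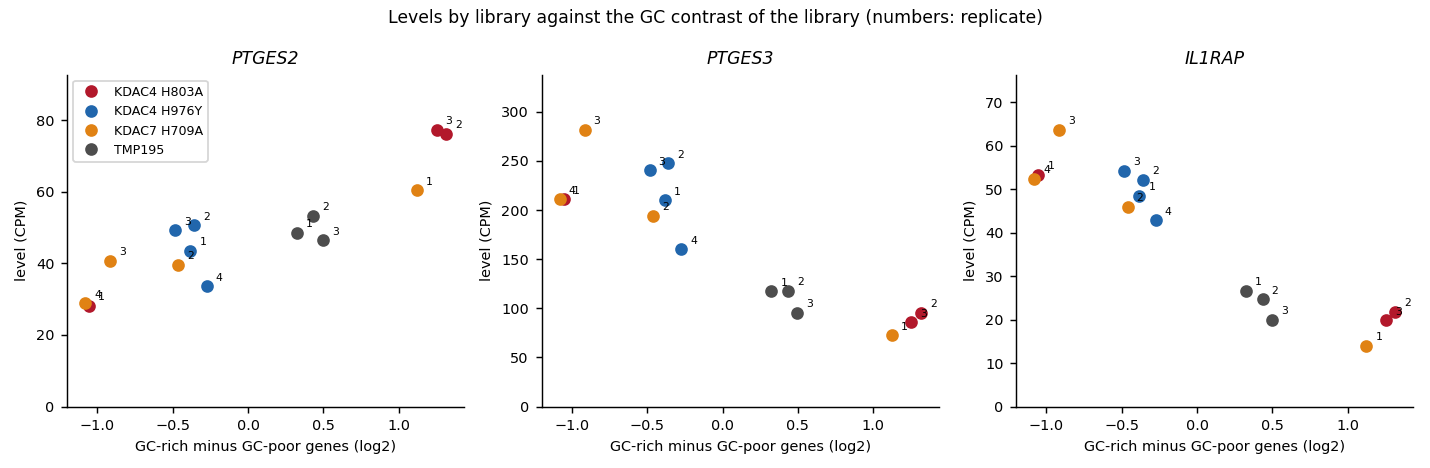
Levels in CPM (y axis) of PTGES2, PTGES3 and IL1RAP against the GC contrast of the library (x axis, log2), 1 point per library with its replicate number, coloured by group. PTGES2 is at 76.3 and 77.3 CPM in KDAC4 H803A replicates 2 and 3, at the right, and at 28.2 CPM in replicate 1, at the left beside KDAC7 H709A replicate 4. PTGES3 and IL1RAP are low in replicates 2 and 3 and as low in TMP195 replicate 3, nearer the middle.

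The make-up of the prostaglandin E synthase transcripts differed between groups. Per length, PTGES was 13.7 to 16.8% of the transcripts of the 3 synthases in KDAC4 H976Y and 8.92 to 9.72% in TMP195. It was 0.305 to 0.746% in KDAC7 H709A and 0.152 to 0.445% in KDAC4 H803A. The ranges of KDAC4 H976Y and TMP195 overlapped with no other group. The ratio of PTGS2 to PTGES per length was 0.535 to 0.631 in KDAC4 H976Y and 0.231 to 0.276 in TMP195, and 0.851 to 3.39 in KDAC7 H709A and 1.82 to 6.20 in KDAC4 H803A. PTGES was thus the more abundant of the 2 inducible enzymes in KDAC4 H976Y and TMP195 libraries. By the same ratio PTGS2 was the more abundant in KDAC4 H803A, and in all KDAC7 H709A libraries but replicate 2. In KDAC7 H709A replicates 2 and 3 the ratio was near 1, at 0.851 and 1.09, so the order there is not settled. PTGES rested on 21 counts in all over KDAC4 H803A and 60 over KDAC7 H709A. The ratios and shares of these 2 groups do not take in counting error.

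**Figure D4:**
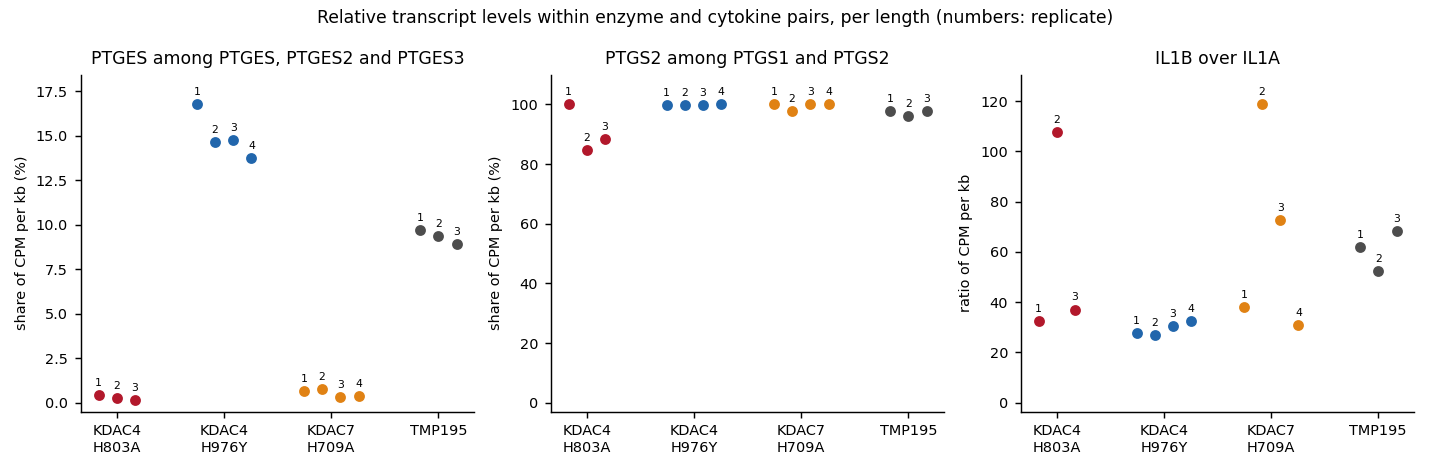
Share of PTGES among the 3 prostaglandin E synthases (left, % of CPM per kilobase), share of PTGS2 among the cyclooxygenases (middle, %) and ratio of IL1B to IL1A (right), by library and group. The PTGES share separates KDAC4 H976Y (13.7 to 16.8%) and TMP195 (8.92 to 9.72%) from the inactivated variants, which stay at or below 0.746%.

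PTGER4 (ENSG00000171522, chromosome 5, 40679498 to 40693735), the EP4 receptor that responds to prostaglandin E2 by raising cyclic AMP, had the opposite order. KDAC4 H976Y had 2.96, 3.08, 3.03 and 3.50 CPM and TMP195 3.62, 4.76 and 4.55 CPM. KDAC4 H803A had 8.04, 5.23 and 3.62 CPM and KDAC7 H709A 12.3, 6.51, 5.76 and 8.43 CPM. All KDAC7 H709A libraries were above all of KDAC4 H976Y and TMP195, and KDAC4 H803A overlapped TMP195 and KDAC7 H709A. Against KDAC4 H976Y, KDAC7 H709A had more PTGER4, by 1.39 ± 0.31 (edgeR adjusted p = 0.0105), in all 23 alternatives, and by 0.97 ± 0.24 without the 3 libraries. The differences of KDAC4 H803A from KDAC4 H976Y (0.85 ± 0.33) and of TMP195 from KDAC7 H709A (-0.93 ± 0.33) did not pass (edgeR adjusted p = 0.0932 and 0.110), nor did they without the 3 libraries, at 0.49 ± 0.25 and -0.51 ± 0.24 (0.104 and 0.0931). TTC33 overlaps PTGER4 on the opposite strand and had 33 to 210 counts a library, and without a stated strand setting reads of the 2 genes cannot be told apart. TTC33 averaged 8.56 CPM in KDAC4 H976Y, where PTGER4 was lowest, and 6.99, 5.54 and 4.00 CPM in KDAC7 H709A, KDAC4 H803A and TMP195.

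On chromosome 9, the genes around PTGES did not share its drop. Of 30 tested genes that start within 1 Mb, 6 were higher and 2 lower in KDAC4 H803A than in KDAC4 H976Y, with a median log2 fold change of 0.40, and none had a drop as large as that of PTGES. The median over the 725 other tested genes of the chromosome was 0.49, against 0.09 over all genes tested. Around PTGS2, 2 of 6 tested neighbours were lower in the same comparison and 0 higher. One of them, PLA2G4A, which starts 148.5 kb away, encodes the cytosolic phospholipase that releases arachidonic acid, the substrate of PTGS2. It averaged 15.7 ± 4.54 CPM (SD, n = 4) in KDAC4 H976Y, with 9.06 to 19.3 CPM a library. It averaged 0.760 ± 1.32 CPM (SD, n = 3) in KDAC4 H803A, all from the 36 counts of replicate 1, 0.696 ± 0.878 CPM (SD, n = 4) in KDAC7 H709A and 1.12 ± 0.332 CPM (SD, n = 3) in TMP195. PLA2G4A was lower than in KDAC4 H976Y in KDAC4 H803A (-4.22 ± 1.19, edgeR adjusted p = 0.0315), in KDAC7 H709A (-4.39 ± 1.05, 0.0161) and in TMP195 (-3.80 ± 1.15, 0.0385). These calls also passed without the 3 libraries. KDAC4 H803A is then left with 0 counts, which makes it at least 47.7-fold lower than the mean of KDAC4 H976Y (against 3 counts in a library), and KDAC7 H709A with 3 counts, 151.9-fold lower (exact 95% interval 51.7 to 739.0, counting error only). TMP195 differed by -3.82 ± 0.32 in that fit.

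**Figure D5:**
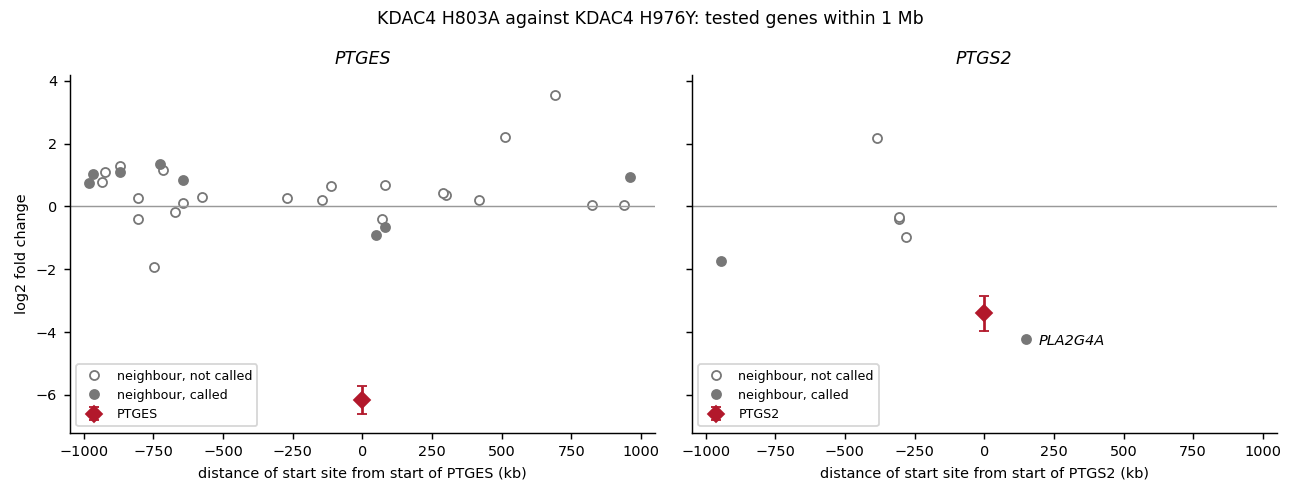
Log2 fold change in KDAC4 H803A against KDAC4 H976Y (y axis) of the tested genes that start within 1 Mb of PTGES (left) and PTGS2 (right), by distance of the start sites (x axis, kb), with filled points at an adjusted p under 0.05 and the member as a diamond with its SE. PTGES at -6.17 lies far below its 30 neighbours, and PLA2G4A at -4.22 lies beside PTGS2 at -3.41.

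In the wider pathway, PLA2G4A and the carbonyl reductase CBR1 were lower than in KDAC4 H976Y in all 3 other groups, AKR1B1 was lower in the inactivated variants, and NLRP3 was higher in all 3 groups. Of 37 listed prostanoid and eicosanoid genes, 22 were tested. In KDAC4 H803A against KDAC4 H976Y, 5 of them were lower and 1 higher (median -0.16, against 0.09 for all genes tested), in KDAC7 H709A 3 were lower and 2 higher (0.22, against 0.09) and in TMP195 3 were lower and 0 higher (-0.21, against 0.03). The shares called were 27.3%, 22.7% and 13.6% of the list, against 15.1%, 12.5% and 16.5% of all genes tested. Without the 3 libraries, 10 were lower and 6 higher in KDAC4 H803A, 5 and 5 in KDAC7 H709A, and 8 and 4 in TMP195. These were 72.7%, 45.5% and 54.5% of the list, against 64.5%, 31.8% and 53.9% of all genes. AKR1B1, an aldo-keto reductase with prostaglandin F synthase activity, stood at 85.7 ± 7.03 CPM (SD, n = 4) in KDAC4 H976Y and 82.5 ± 8.35 (SD, n = 3) in TMP195, and at 35.0 ± 8.76 (SD, n = 3) in KDAC4 H803A and 38.9 ± 9.75 (SD, n = 4) in KDAC7 H709A. It was lower in KDAC4 H803A and KDAC7 H709A than in KDAC4 H976Y (-1.29 ± 0.23 and -1.14 ± 0.21, edgeR adjusted p = 0.00315 and 0.00310), and higher in TMP195 than in these variants (1.24 ± 0.24 and 1.09 ± 0.22, 0.00788 and 0.00976). These were -1.15 ± 0.15, -0.88 ± 0.15, 1.08 ± 0.16 and 0.82 ± 0.15 without the 3 libraries, and all passed. CBR1 fell against KDAC4 H976Y by -1.05 ± 0.27 in KDAC4 H803A (edgeR adjusted p = 0.0211), -0.98 ± 0.24 in KDAC7 H709A (0.0195) and -1.19 ± 0.27 in TMP195 (0.0102), and by -1.29 ± 0.20, -0.91 ± 0.19 and -1.21 ± 0.17 without the 3 libraries. MGLL, the monoacylglycerol lipase that can supply arachidonic acid, went the other way: it was lower in TMP195 than in KDAC4 H803A (-0.92 ± 0.20, edgeR adjusted p = 0.0179) and KDAC7 H709A (-1.24 ± 0.20, 0.00180), and above KDAC4 H976Y in KDAC4 H803A (0.78 ± 0.19, 0.0174) and KDAC7 H709A (1.09 ± 0.18, 0.00180). Without the 3 libraries these were -0.89 ± 0.18, -1.35 ± 0.17, 0.76 ± 0.18 and 1.22 ± 0.17. In KDAC4 H803A, AKR1C3, whose paralogs can share its reads, fell against KDAC4 H976Y by -2.66 ± 0.73 (edgeR adjusted p = 0.0284; -4.00 ± 0.77 without the 3 libraries, from 4 counts), and PTGR2 by -1.13 ± 0.36 (0.0486; -1.30 ± 0.30). In TMP195 the thromboxane receptor TBXA2R fell by -2.32 ± 0.55 (edgeR adjusted p = 0.0135; -2.30 ± 0.37). ABCC4, a prostaglandin exporter, rose in KDAC7 H709A by 0.99 ± 0.26 (edgeR adjusted p = 0.0240; 1.18 ± 0.15). TMP195 had 1 gene higher, AKR1B1, and 1 lower, MGLL, against each inactivated variant (9.09% of the list, against 5.34% and 6.29% of all genes). It had 7 higher and 6 lower against KDAC4 H803A and 6 higher and 7 lower against KDAC7 H709A when the 3 libraries were left out (59.1% in each, against 47.9% and 45.7%). Between KDAC7 H709A and KDAC4 H803A, edgeR called 0 genes of this list or the next, with 0 at an unadjusted p under 0.05 and 0 by DESeq2. Without the 3 libraries that comparison had 7 higher and 6 lower here (59.1%), and 7 higher and 7 lower in the next list (82.4%), against 60.2% of all genes.

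Of 33 listed genes of the interleukin 1 family and its signalling, 17 were tested. In KDAC4 H803A against KDAC4 H976Y, 2 were higher and 0 lower (median 0.29), in KDAC7 H709A 1 was higher and 0 lower (0.50), and in TMP195 3 were higher and 1 lower (-0.01). The shares called were 11.8%, 5.88% and 23.5%, against 15.1%, 12.5% and 16.5% of all genes tested. With the 3 libraries left out, 8 were higher and 4 lower in KDAC4 H803A, 6 and 1 in KDAC7 H709A, and 5 and 3 in TMP195 (70.6%, 41.2% and 47.1%, against 64.5%, 31.8% and 53.9%). TMP195 had 0 called against KDAC4 H803A (edgeR; 1 unadjusted, 0 by DESeq2; 2 higher and 5 lower without the 3 libraries, 41.2% against 47.9% of all genes) and 0 against KDAC7 H709A (3 unadjusted, 1 by DESeq2; 5 higher and 6 lower without the 3 libraries, 64.7% against 45.7%). NLRP3, the sensor of the inflammasome that activates caspase 1, was higher than in KDAC4 H976Y in KDAC4 H803A (1.22 ± 0.23, edgeR adjusted p = 0.00433), KDAC7 H709A (1.00 ± 0.22, 0.00879) and TMP195 (1.20 ± 0.23, 0.00390), and by 1.26 ± 0.17, 0.67 ± 0.18 and 1.17 ± 0.16 without the 3 libraries. SIGIRR, a receptor that restrains interleukin 1 signalling, rose in KDAC4 H803A (1.72 ± 0.54, edgeR adjusted p = 0.0478; 2.09 ± 0.19 without the 3 libraries). In TMP195, the inflammasome adaptor PYCARD rose (3.85 ± 1.16, edgeR adjusted p = 0.0374) from 4 counts in all over KDAC4 H976Y, TOLLIP, which binds the receptor complex, rose (0.66 ± 0.17, 0.0196) and CASP1, the protease that cuts the IL1B precursor, fell (-1.75 ± 0.54, 0.0433). These 3 were 3.85 ± 0.67, 0.65 ± 0.11 and -1.77 ± 0.28 without the 3 libraries.

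Profiles over the 14 libraries were compared by the mean absolute difference of centred log2 CPM, where 0 is identical. Among 17779 other genes tested, IL1A was the gene most like PTGS2 (0.36, against a median of 1.52 over all genes), followed by SCG5 and C1R (0.47 and 0.48). PTGS2 was the third most like IL1A, after PRCAT47 and RPS29 (0.34 and 0.35), and IL1B came 57th. The profile of IL1B itself was closest to the ribosomal protein genes RPL39 and RPL23A and to TES (0.16, 0.21 and 0.19). IL1R1 was closest to TGFBI, INHBA and NDUFA1 (0.43, 0.44 and 0.45). PTGES was closest to RP11-982M15.2 and RP11-229P13.23, both annotated as antisense RNAs, and the collagen gene COL1A2 (0.50, 0.65 and 0.64, against a median of 2.45). These 3 had no counts in several libraries. PTGS2, IL1A, IL1B and IL1R1 came 35th, 78th, 124th and 140th in likeness to PTGES. PTGER4 was closest to NPAS2, SYNE1 and PNISR (0.15, 0.19 and 0.20, against a median of 0.70).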

How the data were processed

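RNA depleted of ribosomal RNA was sequenced from 15 samples. For these the authors deposited a single table of expected counts, which RSEM estimates by sharing reads among matching transcripts. The submitters' processing notes list RSEM 1.3.3, Bowtie2 2.4.5, Trimmomatic 0.39, DESeq2 1.38.2 and GRCh38. The annotation release is not given in the sources used here, nor is the strand setting. In the column of KDAC4 H803A replicate 4, 7367 of 7612 genes with a single transcript over 1000 bases (96.8%) equalled the transcript length less 248.86 bases within 0.02, so it served only as gene lengths (an "other" value as deposited), by which levels per kilobase were divided. In the remaining columns at most 0.236% of genes shared a difference. Of the deposited expected counts, 89.6% were whole, and all were rounded.

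Gene positions are those of GENCODE v29 (57055 IDs matched). Of the 10 members, 8 had a RefSeq promoter stretch outside the annotated gene. Genes were kept with filterByExpr (minimum count 10, minimum total 15), scaled by TMM and tested with edgeR 4.0.16's quasi-likelihood F test (limma 3.58.1, R 4.3.3) in 1 model of 4 groups without covariates, with Benjamini-Hochberg adjustment over 17780 genes. SE is the log2 fold change over the square root of F. The scripts were tested on simulated data. There were 23 alternatives, DESeq2 1.42.0 among them. The labels do not say whether replicate numbers pair the samples.

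The members, the pathway and marker lists and the naming rule were chosen with earlier results of these data known. The rule names all members, at most the 4 largest called genes of each list in each comparison, the 3 genes with the most alike profile for each called member, and the tested genes starting within 1 Mb. 0 value columns were left unmapped.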

Additional observations from a re-analysis of the deposited data

Results flagged for a closer look

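In groups of 4 libraries, a library was singled out when its gap to the nearest other library took more than 0.829 of the range of its group (Dixon's test at 95%). Of 20 groups of 4 tested, 3 were singled out. Chance alone singles out about 1 in 20 where values are continuous and without ties, which does not hold for PTGS1. PTGES stood at 27.4 CPM in KDAC4 H976Y replicate 4, where the next library had 44.6 CPM, a gap of 0.949 of the range. That library was also the shallowest, with 6151383 counts, and had 31.5% of them on mitochondrial ribosomal RNA; the part of either in the PTGES value was not tested. PTGES stood at 1.56 CPM (18 counts) in KDAC7 H709A replicate 2, where the next library had 0.876 CPM, a gap of 0.868 of the range. PTGS1 stood at 0.0868 CPM in KDAC7 H709A replicate 2, which is 1 count where the other 3 libraries had 0. With the others tied at 0, any count takes the whole range, so this result was fixed by the tie and marks no outlier.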

How the results depend on the processing

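Of 54 results (9 members in 6 comparisons), 16 were called. Of these calls 13 were kept in all 23 alternatives, 3 were lost in at least 1, and 0 changed direction. Results that were not called were less settled: 24 of them passed in at least 1 alternative. The count of members called in KDAC7 H709A against KDAC4 H976Y was 6 throughout. Without the 3 libraries that stand apart the counts were 8 in place of 4 (KDAC4 H803A against KDAC4 H976Y), 5 in place of 0 (KDAC7 H709A against KDAC4 H803A), 5 in place of 2 (TMP195 against KDAC4 H803A), 7 in place of 3 (TMP195 against KDAC4 H976Y) and 7 in place of 1 (TMP195 against KDAC7 H709A). Fitting only the groups compared gave 1 in TMP195 against KDAC4 H803A, with 366 calls over all genes in place of 949, and 7 in TMP195 against KDAC4 H976Y, with 9576 in place of 2936. In TMP195 against KDAC7 H709A, DESeq2 gave 4 and GC and length offsets 5, with 2484 and 1245 calls over all genes in place of 1119. Leaving out 1 library at a time gave 4 to 7, 0 to 3, 1 to 4, 1 to 6 and 1 to 4 in the order above. The highest counts came without KDAC4 H803A replicate 1, and for the last without KDAC7 H709A replicate 1; the 1 in TMP195 against KDAC4 H976Y came without TMP195 replicate 3. Over all genes, leaving out 1 library gave 1129 to 8431 calls in place of 2679 for KDAC4 H803A against KDAC4 H976Y, and 0 to 4788 in place of 0 for KDAC7 H709A against KDAC4 H803A.

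Same-numbered libraries of different groups correlated at -0.69 to 0.36 in their deviations (19 pairs, 5 over 0.1), and the 54 other pairs at -0.67 to 0.75. The labels do not say whether the numbers mark a shared culture or day. Whether labels of some libraries were exchanged was not tested, so these correlations cannot decide whether the numbers pair the libraries. A replicate block gave 4, 6, 0, 2, 2 and 1 members called in the order of the comparisons used in the report's fold change plot; it ended the IL1A call of TMP195 against KDAC4 H976Y (adjusted p = 0.0575). All-gene calls fell under it to 1230, 1322, 0, 563, 1556 and 453.

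Results that were not called changed sign in 20 cases. In KDAC7 H709A against KDAC4 H803A, IL1A went from 0.26 to -0.042 (GC and length offsets), -0.15 (without KDAC4 H803A replicate 2) and -0.088 (without KDAC7 H709A replicate 4; -0.15 to 1.12 over single libraries left out), and PTGS2 from -0.32 to 0.16 (without the 3 libraries) and 0.80 (without KDAC4 H803A replicate 1; -0.73 to 0.80 over single libraries). In KDAC7 H709A against KDAC4 H976Y, IL1RAP went to 0.15 and 0.12 and PTGES3 to 0.15 and 0.083, without the 3 libraries and without KDAC7 H709A replicate 1 (-0.40 to 0.12 and -0.43 to 0.083 over single libraries). In TMP195 against KDAC4 H803A, IL1RAP went to 0.20 and 0.20 and PTGES3 to 0.29 and 0.29, without the 3 libraries and without KDAC4 H803A replicate 1 (-0.70 to 0.20 and -0.51 to 0.29 over single libraries). PTGES2 changed sign with GC and length offsets in 5 comparisons, to -0.16, 0.0995, 0.075, -0.081 and -0.025, and in KDAC7 H709A against KDAC4 H976Y without KDAC4 H976Y replicate 2 (0.0032) and KDAC7 H709A replicate 4 (0.082; -0.29 to 0.082 over single libraries). The cause of these changes was not tested. Depth limits IL1R1 (0 to 44 counts) and PTGS1 (0 to 7) most.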

Other observations

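Several partners of the members were at or near 0 in all groups. The adaptor MYD88, through which IL1R1 and IL1RAP signal, averaged 0.144 to 0.259 CPM in the 4 groups and was not tested. IL1RN, the interleukin 1 receptor antagonist, averaged at most 0.0352 CPM, and the decoy receptor IL1R2 at most 0.343 CPM. IL18, a related cytokine, averaged 0.205 to 0.379 CPM. HPGD, the enzyme that inactivates prostaglandin E2, averaged 0.104 to 0.232 CPM. Among the other prostaglandin E receptors, PTGER2 averaged at most 0.0204 CPM and PTGER3 at most 0.193 CPM. PTGER1 averaged 1.41 ± 1.09 CPM (SD, n = 3) in KDAC4 H803A, 0.0266 ± 0.0532 (SD, n = 4) in KDAC4 H976Y, 0.652 ± 1.303 (SD, n = 4) in KDAC7 H709A and 0.237 ± 0.107 (SD, n = 3) in TMP195, and was not called. Per length, the ratio of IL1RAP to IL1R1 was 20.8 to 29.9 in KDAC4 H976Y and 20.1 to 36.9 in TMP195. It was 31.6 to 219.5 in KDAC4 H803A and 134.0 to 321.7 in the 3 KDAC7 H709A libraries with IL1R1 counts.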
